A study of Mus musculus with 2 samples.

Results

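The 10 genes described here act in DNA methylation and in the Polycomb repressive complex PRC2: Dnmt1, Uhrf1, Hells, Dnmt3a, Tet2, Tet3, Ezh2, Ezh1, Suz12 and Eed. They were taken by symbol from the gene list of the deposited matrices, which held all 10 of them among 27998 genes. Their RNA was counted in single brain cells with the droplet method of 10x Genomics, after a sort for CD11b+/CD45+ cells, which takes microglia and other myeloid cells. The Repop D5 library pooled 6 adult wild type C57BL/6J mice given PLX5622 for 14 days, a drug that blocks the microglial survival receptor Csf1r, followed by 5 days of control diet. The CD library pooled 4 adult wild type C57BL/6J mice on control diet for 19 days. With 1 library of pooled animals per group, no test between groups could be made and the spread between mice is unknown. The 95% intervals reflect counting error alone. The words "higher" and "lower" give the direction of Repop D5 against CD.

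DNA methylation is written by methyltransferases of separate roles. Dnmt1 copies the existing pattern onto the new strand after replication, guided by Uhrf1, which binds hemimethylated DNA, and helped by the chromatin remodeller Hells. Dnmt3a sets methylation on unmethylated DNA, and Tet2 and Tet3 oxidise methylcytosine, the first step of its removal. PRC2 methylates histone H3 on lysine 27, a mark of silenced genes. Its catalytic subunit is either Ezh2, known from dividing cells, or Ezh1, known from resting ones, and Suz12 and Eed are core subunits needed with both. In mouse microglia PRC2 is known to keep genes of phagocytic clearance silent in striatum and cortex.

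The libraries differed in depth and in the cells they held. After the cell filter the Repop D5 library had 553 cells with a median of 16226 UMIs (unique molecular identifiers, tags that mark single captured RNA molecules), and CD had 609 cells with a median of 5982 UMIs. Per cell, mt- genes took a median of 4.78% of UMIs in Repop D5 and 2.00% in CD, and mt- and ribosomal protein genes together took 28.7% of UMIs in Repop D5 and 14.1% in CD; the part of these differences in the results was not tested. The libraries shared 1 cell barcode. The clusters named as other cell types were border macrophage-like cells (0 of 553 cells in Repop D5, which allows up to 0.542%, and 17.7% of cells in CD), monocyte or dendritic cell-like cells (59 in Repop D5 and 55 in CD) and neutrophil-like cells (7 in Repop D5 and 48 in CD). The remaining 487 Repop D5 and 398 CD cells, called microglia-like here, had all 12 microglia markers detected in both libraries, summed to 13960 CPM (UMIs of a gene divided by all UMIs of the same cells and scaled to 1 common total) in Repop D5 and 33442 CPM in CD. They lay in different clusters, 1, 3, 5 and 6 for Repop D5 and 0 and 2 for CD, apart from 1 Repop D5 and 5 CD cells. No cluster of any class had a microglia marker among its 10 leading genes. Cluster 6 also had a listed monocyte marker (Nr4a1) there, so the class did not pass the check for comparing it between libraries. Sums over all retained cells are therefore the main values, and those of the microglia-like cells are given beside them. The 5 haemoglobin and erythroid markers summed to 2.72 CPM in Repop D5 and 1642 CPM in CD (2.53 and 3683 CPM in the microglia-like cells), and the 14 neutrophil markers to 2174 and 13472 CPM, and their part in the results was not tested.

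The maintenance genes Dnmt1, Uhrf1 and Hells and the PRC2 enzyme Ezh2 were higher in Repop D5. Dnmt3a, Tet2, Tet3 and Ezh1 were lower, and Suz12 and Eed were neither. All 10 genes reached the minimum of 10 CPM in 1 library, and the call needed a 1.5-fold difference in either direction and an interval that leaves out 1. Uhrf1, Hells and Ezh2 reached the minimum only in Repop D5 and Ezh1 only in CD, so these genes could be called in only 1 direction. By this rule 4 were higher, against 16.8% of 8463 genes measured, and 4 were lower, against 42.1% of those genes, so the share of lower members is close to the background. In the microglia-like cells 5 were higher, Suz12 being added, against 17.8% of 8378 genes, and 4 lower, against 38.9%. The median log2 ratio was 0.14 for the 10 genes and -0.38 for all genes measured. A trimmed-mean (TMM) scaling raises each log2 ratio by 0.46, and leaving mt- and ribosomal protein genes out of the totals raises it by 0.27. With these the median of all genes was 0.08 and -0.12. Of all genes called, 28.6% were higher as scaled here, 58.2% with TMM and 44.3% with those genes left out. In bulk sums of this kind, fewer cells that express a gene and less RNA per cell cannot be told apart.

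**Figure D1:**
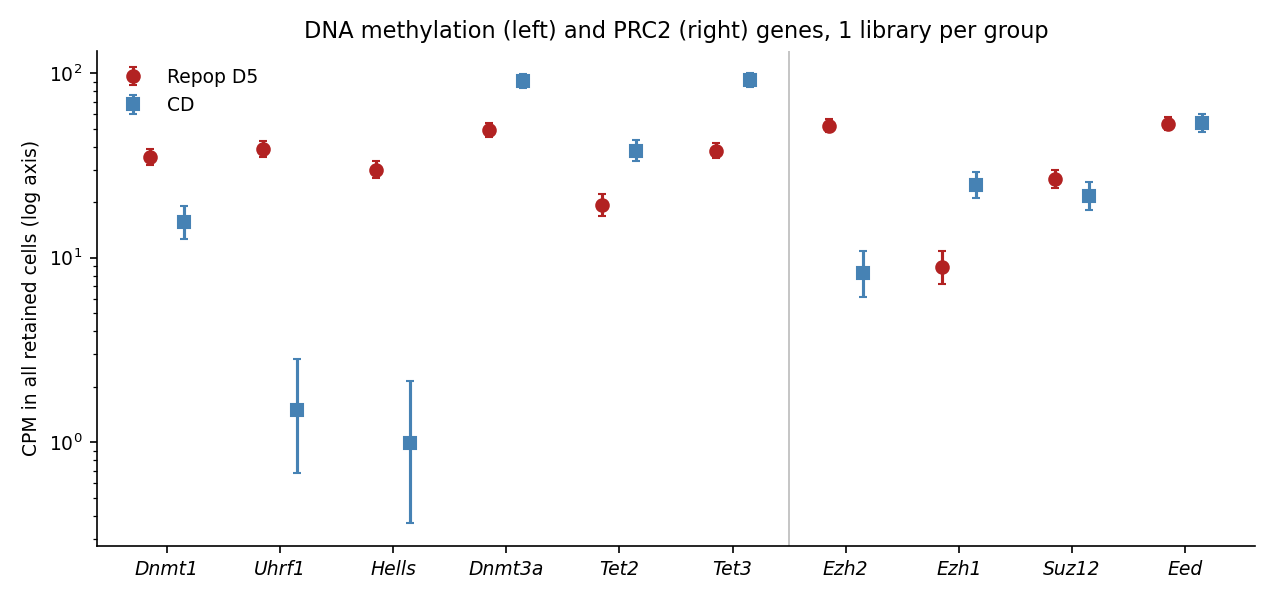
Level of each gene in CPM (log axis) over all retained cells of Repop D5 (circles) and CD (squares), 1 library each, with exact 95% Poisson intervals. Uhrf1 and Hells stand at 39.0 and 30.1 CPM in Repop D5, above their 1.49 and 0.991 CPM in CD, while Eed overlaps between the libraries.

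Uhrf1 (ENSMUSG00000001228, mm10 chromosome 17, 56303321 to 56323486, plus strand) had 430 UMIs in Repop D5, or 39.0 CPM (35.4 to 42.8), against 9 UMIs in CD, or 1.49 CPM (0.680 to 2.82). The ratio was 26.2 (13.7 to 57.7). Of the 9 CD UMIs, 1 came from the 398 microglia-like cells, 2 from border macrophage-like, 3 from monocyte or dendritic cell-like and 3 from neutrophil-like cells. In the microglia-like cells Uhrf1 had 382 UMIs in Repop D5 and that single UMI in CD, a ratio of 103 (18.3 to 4062). Hells (ENSMUSG00000025001, chromosome 19, 38930915 to 38971051, plus strand) had 332 UMIs, or 30.1 CPM (26.9 to 33.5), in Repop D5 and 6 UMIs, or 0.991 CPM (0.364 to 2.16), in CD. Its ratio was 30.4 (13.8 to 83.3), and in microglia-like cells 81.6 (14.5 to 3235) on 1 CD UMI. Both genes were thus near the detection limit in CD, where 3 counts correspond to 0.495 CPM.

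Dnmt1 (ENSMUSG00000004099, chromosome 9, 20907209 to 20959888, minus strand) was present in both libraries. It had 390 UMIs, or 35.3 CPM (31.9 to 39.0), in Repop D5 and 95 UMIs, or 15.7 CPM (12.7 to 19.2), in CD, a ratio of 2.25 (1.80 to 2.85). In microglia-like cells it had 35.4 CPM in Repop D5 and 10.6 CPM in CD, a ratio of 3.35 (2.28 to 5.11). The other CD classes held Dnmt1 at 19.1 to 20.6 CPM, above the CD microglia-like level. Their intervals overlap its interval, that of the border macrophage-like cells (13.4 to 26.4) only near the end of it (7.02 to 15.3). Such overlap does not show the levels to be equal.

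Dnmt3a (ENSMUSG00000020661, chromosome 12, 3806007 to 3914443, plus strand) went the opposite way to Dnmt1. It had 545 UMIs, or 49.4 CPM (45.3 to 53.7), in Repop D5 and 551 UMIs, or 91.0 CPM (83.5 to 98.9), in CD, a ratio of 0.543 (0.481 to 0.612). Tet3 (ENSMUSG00000034832, chromosome 6, 83362373 to 83459084, minus strand) had 421 UMIs, or 38.1 CPM (34.6 to 42.0), in Repop D5 and 558 UMIs, or 92.1 CPM (84.7 to 100.1), in CD, a ratio of 0.414 (0.364 to 0.471). Tet2 (ENSMUSG00000040943, chromosome 3, 133463679 to 133545139, minus strand) had 213 UMIs, or 19.3 CPM (16.8 to 22.1), in Repop D5 and 231 UMIs, or 38.1 CPM (33.4 to 43.4), in CD, a ratio of 0.506 (0.418 to 0.612). With the TMM scaling Dnmt3a (0.745, 0.660 to 0.840) and Tet2 (0.694, 0.573 to 0.840) were no longer past the ratio of 1.5, while Tet3 (0.568) and Ezh1 (0.489) were. In microglia-like cells the ratios were 0.514 for Dnmt3a, 0.437 for Tet3 and 0.540 for Tet2. An antisense gene counted in the same files overlaps Dnmt3a (Dnmt3aos) and another overlaps Tet2 (Gm42567), and whether counting used strand is not given in the sources used here.

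Ezh2 and Ezh1, the alternative enzymes of PRC2, moved in opposite directions. Ezh2 (ENSMUSG00000029687, chromosome 6, 47530139 to 47595341, minus strand) had 574 UMIs, or 52.0 CPM (47.8 to 56.4), in Repop D5 and 50 UMIs, or 8.26 CPM (6.13 to 10.9), in CD, a ratio of 6.30 (4.71 to 8.59). Ezh1 (ENSMUSG00000006920, chromosome 11, 101191115 to 101226463, minus strand) had 98 UMIs, or 8.88 CPM (7.21 to 10.8), in Repop D5 and 151 UMIs, or 24.9 CPM (21.1 to 29.2), in CD, a ratio of 0.356 (0.273 to 0.462). In microglia-like cells the ratio was 6.69 (4.33 to 10.9) for Ezh2 and 0.350 (0.251 to 0.490) for Ezh1. A gene on the other strand, Gm26625, overlaps Ezh2 and is counted in the same files.

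The share of Ezh2 in the UMIs of both enzymes does not depend on the scaling of the libraries. It was 85.4% (82.5 to 88.0) in Repop D5 and 24.9% (19.1 to 31.4) in CD, and 85.9% and 24.1% in the microglia-like cells. The share of Dnmt1 in the UMIs of Dnmt1 and Dnmt3a was 41.7% (38.5 to 44.9) in Repop D5 and 14.7% (12.1 to 17.7) in CD. In microglia-like cells it was 41.1% (37.8 to 44.5) in Repop D5 and 9.69% (6.53 to 13.7) in CD. The share of Tet3 in the UMIs of Tet3 and Tet2 was 66.4% (62.6 to 70.1) in Repop D5 and 70.7% (67.4 to 73.9) in CD, with overlapping intervals. So the balance within the first 2 pairs differed between the libraries beyond counting error and that of the Tet pair did not.

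**Figure D2:**
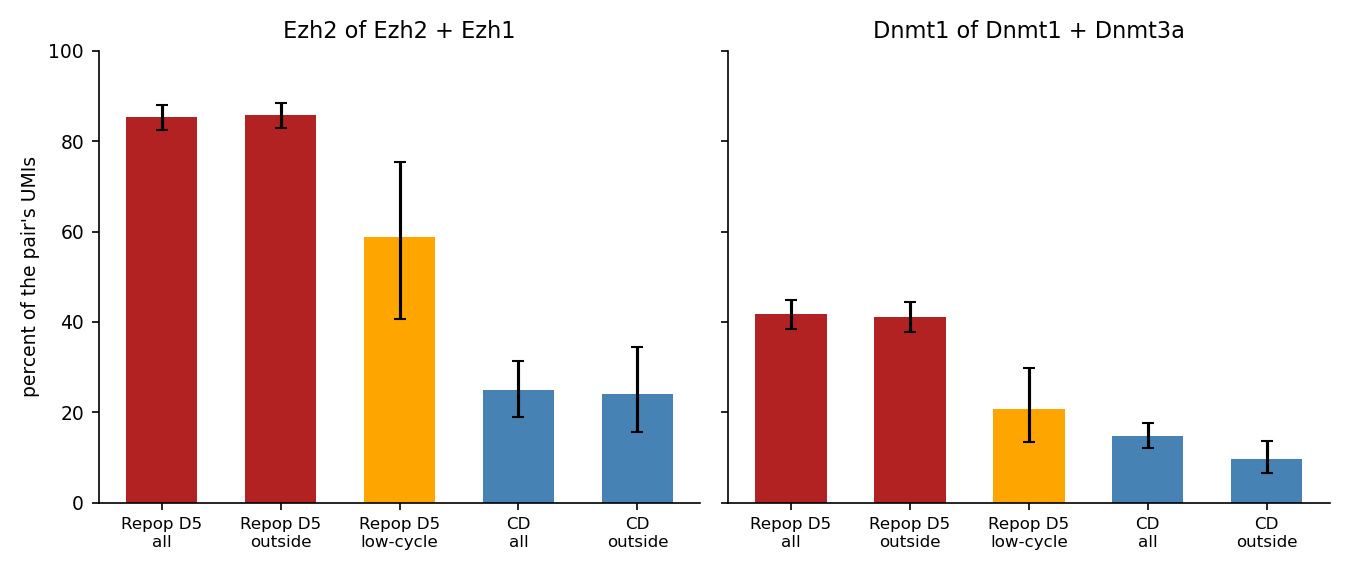
Share of Ezh2 in the UMIs of Ezh2 and Ezh1 (left) and of Dnmt1 in those of Dnmt1 and Dnmt3a (right), in percent, as bars with exact 95% intervals, for all retained cells, for cells outside the other named types (microglia-like) and for the low-cycle range of Repop D5. The Ezh2 share is 85.4% in Repop D5, 58.8% in its low-cycle range and 24.9% in CD.

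The core subunits that both enzymes need changed less. Suz12 (ENSMUSG00000017548, chromosome 11, 79993106 to 80034123, plus strand) had 296 UMIs, or 26.8 CPM (23.8 to 30.1), in Repop D5 and 131 UMIs, or 21.6 CPM (18.1 to 25.7), in CD, a ratio of 1.24 (1.01 to 1.53). It passed the ratio of 1.5 with the TMM scaling (1.70, 1.38 to 2.11) and in microglia-like cells (1.71, 1.23 to 2.42), where it had 27.1 CPM in Repop D5 and 15.8 CPM in CD. Its level in the border macrophage-like cells of CD was 31.3 CPM (23.8 to 40.3). The gene Gm26563 overlaps Suz12 on the other strand and is counted in the same files. Eed (ENSMUSG00000030619, chromosome 7, 89954654 to 89980983, minus strand) had 590 UMIs, or 53.5 CPM (49.2 to 57.9), in Repop D5 and 326 UMIs, or 53.8 CPM (48.1 to 60.0), in CD, a ratio of 0.993 (0.866 to 1.14). Its ratio was 1.02 (0.846 to 1.24) in microglia-like cells and 1.36 (1.19 to 1.56) with the TMM scaling.

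The promoters of the 10 genes were searched for letters of cell cycle motifs. RefSeq promoter windows on GRCm38.p6, from 250 bases before to 50 bases after each start, were found for all 10 genes, 15 windows in all. They were searched on both strands for 4 forms of the E2F motif, TTTCCCGC, TTTGGCGC, TTTCGCGC and TTTGCCGC, bound by the factors that drive S phase genes. A match lay in a window of 5 of the 10 genes, Dnmt1, Uhrf1, Hells, Ezh2 and Suz12, while 2.26% of 32851 windows and 2.61% of 27025 genes in the table hold one. None of the matches overlaps a CHR or CCAAT match. The CHR motif (TTTGAA) of cell cycle promoters was in windows of 3 of the 10 genes and 20.2% of all genes, and CCAAT in those of 6 of the 10 and 41.1% of all. The E2F matches, shown to compare the genes, read 5′ to 3′ on the gene's strand, with the motif in capitals and the first base of the motif counted from the start, which is base 1. A match is a description of these letters and not a binding site.
Dnmt1, from base 34 (chr9:20952574-20952603, minus strand): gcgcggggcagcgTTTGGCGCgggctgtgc
Dnmt1, from base -219, motif on the opposite strand (chr9:20952824-20952853, minus strand): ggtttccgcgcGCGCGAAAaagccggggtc
Uhrf1, from base -185 (chr17:56304117-56304146, plus strand): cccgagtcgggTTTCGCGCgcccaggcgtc
Hells, from base -62 (chr19:38930917-38930946, plus strand): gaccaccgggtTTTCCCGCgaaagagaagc
Ezh2, from base 4 (chr6:47595009-47595038, minus strand): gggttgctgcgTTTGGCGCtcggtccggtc
Suz12, from base -219 (chr11:79992876-79992905, plus strand): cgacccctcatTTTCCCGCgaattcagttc
The 4 forms were found in no window of Dnmt3a, Tet2, Tet3, Ezh1 or Eed.

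Within Repop D5 the genes were next set against the cell cycle RNA of each cell. The 487 microglia-like cells were put into 4 ranges of equal cell number by the share of their UMIs from 41 S phase genes, none of them a member, and separately from 53 genes of G2 and mitosis. These are ranges of a score and not cell types, and 10 to 29 cells lay within 5% of each cut. Median UMIs were 11579, 15696, 21803 and 21476 from the lowest to the highest S phase range. The highest over the lowest range passed the ratio of 1.5 in 15.6% of 7531 genes by the S phase list and 14.6% of 7501 genes by the other, and its inverse in 5.17% and 4.47%.

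Dnmt1, Uhrf1, Hells and Ezh2 increased with the S phase share. From the lowest to the highest range Uhrf1 had 9.84, 15.2, 39.4 and 72.2 CPM, a ratio of 7.33 (4.41 to 13.1). Hells had 8.61, 11.3, 35.4 and 53.6 CPM, a ratio of 6.22 (3.60 to 11.6). Ezh2 had 16.0, 26.1, 57.5 and 89.8 CPM, a ratio of 5.61 (3.75 to 8.76). In each of these genes the upper 2 ranges lay above the lower 2. Dnmt1 had 13.5, 17.0, 39.4 and 57.6 CPM, a ratio of 4.26 (2.72 to 6.97), which was 1.43 (0.643 to 3.28) after thinning each cell to 3000 UMIs, a step that also thins the S phase counts that rank the cells. Suz12 and Eed, the core subunits, had ratios of 1.86 (1.22 to 2.92) and 1.56 (1.18 to 2.1), and after thinning 2.14 (0.876 to 5.74) and 1.01 (0.548 to 1.85), with intervals that include 1. In all, 6 of the 10 genes were past the ratio of 1.5 by the S phase list, against 15.6% of 7531 genes.

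The other 4 genes showed no such order. By the S phase list 0 members were past the inverse ratio, against 5.17% of 7531 genes, so this count is close to the background. Dnmt3a had 56.0, 47.4, 53.4 and 47.5 CPM over the S phase ranges, a ratio of 0.848 (0.646 to 1.12). Tet3 had 35.7, 37.4, 41.8 and 35.3 CPM (0.988, 0.710 to 1.39), and Tet2 17.8, 16.5, 20.7 and 19.7 CPM (1.10, 0.694 to 1.78). Ezh1, below the minimum of 10 CPM in both end ranges, had 6.77, 9.13, 11.0 and 7.12 CPM (1.05, 0.485 to 2.42). For Ezh1 the interval leaves room for a difference of over 2-fold either way.

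The genes separated again over the ranges by G2 and mitosis RNA. Ezh2 was highest in the highest of these ranges, with 14.0, 32.6, 59.2 and 84.2 CPM, a ratio of 6.01 (3.95 to 9.55). Hells peaked in the third range, with 18.7, 37.4, 43.6 and 20.9 CPM, so that its highest and lowest ranges did not differ beyond counting error (1.12, 0.720 to 1.77). Uhrf1 had 14.0, 32.1, 52.8 and 44.4 CPM, a ratio of 3.17 (2.04 to 5.11), or 1.61 (0.688 to 3.98) after thinning, which here too thins the counts that rank the cells. Dnmt1 had 18.1, 30.4, 44.7 and 40.2 CPM, a ratio of 2.22 (1.49 to 3.40), or 1.01 (0.355 to 2.87) after thinning. Suz12 had a ratio of 1.86 (1.23 to 2.90), or 1.89 (0.752 to 5.15) after thinning, and Eed of 1.23 (0.922 to 1.65). Dnmt3a, Tet2, Tet3 and Ezh1 had ratios of 0.775, 1.58, 0.923 and 0.998, all with intervals that include 1.

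**Figure D3:**
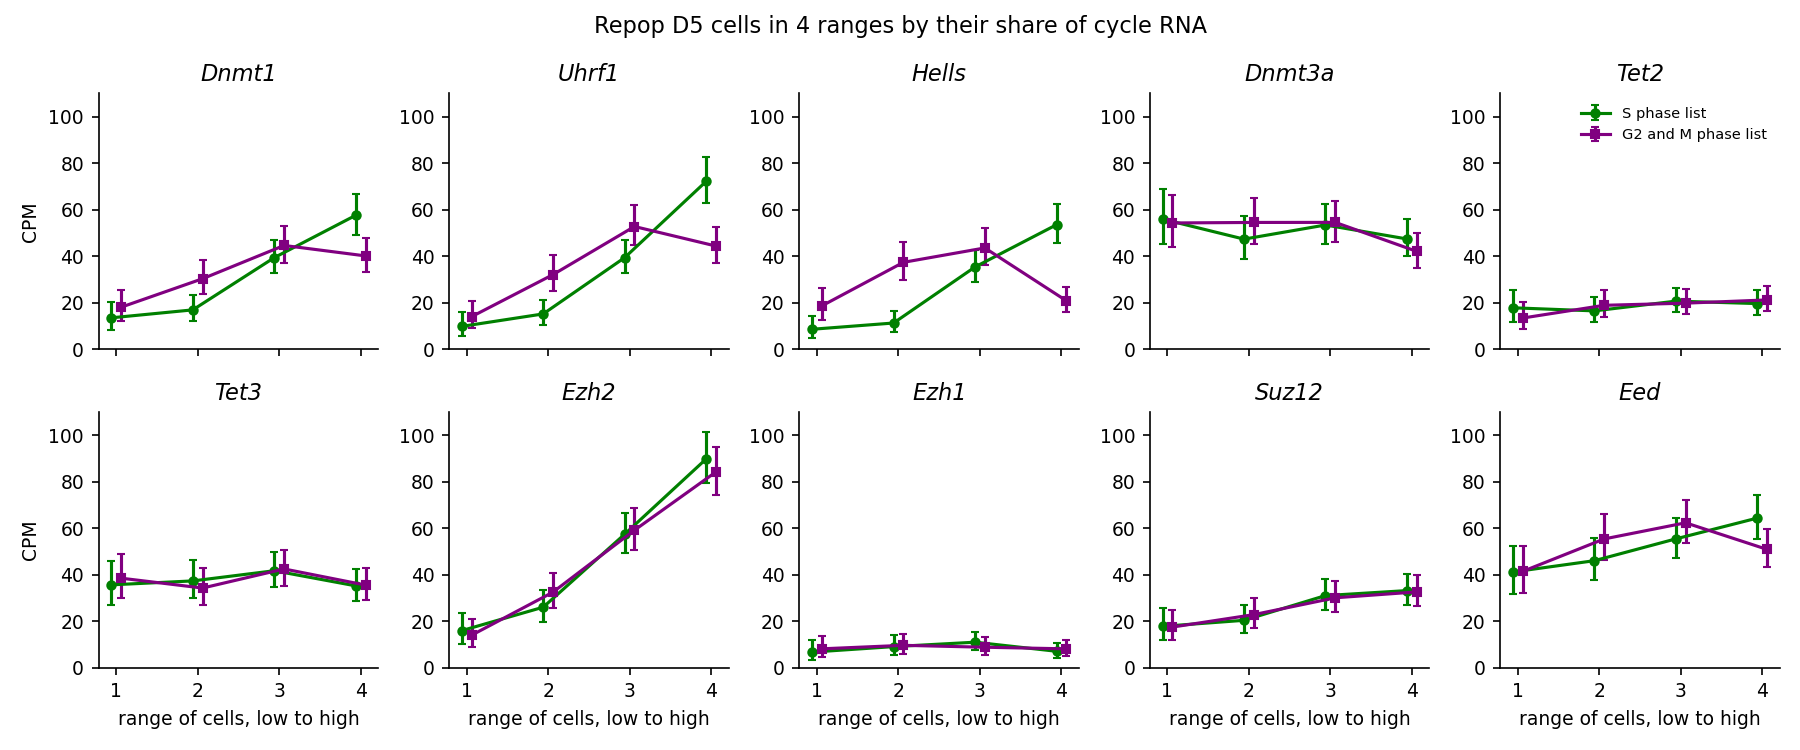
Level of each gene (CPM, exact 95% Poisson intervals) in the 487 microglia-like Repop D5 cells divided into ranges by their share of UMIs from S phase genes (circles) or genes of G2 and mitosis (squares), lowest at the left. Ezh2 increases to 89.8 and 84.2 CPM on both axes, Hells falls back to 20.9 CPM in the highest G2 and mitosis range, and the intervals of Dnmt3a and Tet3 overlap across the ranges.

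The genes most alike across these 487 cells were searched among 2521 genes with at least 50 CPM in Repop D5. Correlations of log counts per 10000 UMIs were taken as a description; the cells share 1 library and differ in depth. For Uhrf1 the 3 highest were Fen1 (r = 0.385), Rrm2 (0.380) and Mcm6 (0.348), genes of DNA replication and nucleotide supply. For Hells they were Mcm6 (0.406), Mcm3 (0.318) and Dut (0.304). For Ezh2 they were 2810417H13Rik (0.440), Top2a (0.433) and Rrm2 (0.430). For Dnmt1 only Pcna, the sliding clamp of replication, reached 0.3 (r = 0.320). No gene reached r = 0.3 with Dnmt3a, Tet2, Tet3, Ezh1, Suz12 or Eed. Between members the highest correlation was that of Uhrf1 and Hells (0.241), and such weak values in sparse counts are no finding.

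The 122 microglia-like Repop D5 cells with the least cycle RNA, 1 in 4, were then compared with the CD microglia-like cells. In these cells the S phase and the G2 and mitosis genes made up 0.166% of UMIs, against 0.538% in all 487 and 0.102% in the CD cells. Mki67, the marker of proliferating cells, still had 39.0 CPM there and 1.13 CPM in CD, so they are not free of cycle RNA. Ezh2 had 12.2 CPM (7.45 to 18.8) in the low-cycle range and 7.92 CPM (4.90 to 12.1) in CD, a ratio of 1.54 (0.792 to 2.98). Dnmt1 had 13.4 CPM (8.41 to 20.3) and 10.6 CPM (7.02 to 15.3), a ratio of 1.27 (0.692 to 2.30), or 2.59 (1.15 to 5.74) after thinning to 3000 UMIs. Thinning also thins the cycle counts that rank the cells, so the thinned low-cycle cells were picked anew and are not the same set. Without thinning, neither Ezh2 nor Dnmt1 was called with the total-UMI scaling. With the TMM scaling Ezh2 was called, at 2.05 (1.05 to 3.97), and Dnmt1 was not (1.69, 0.921 to 3.06). Suz12 had a ratio of 1.04 (0.616 to 1.72) and Eed of 0.709 (0.516 to 0.965).

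Uhrf1 remained above CD in the low-cycle range, with 10.4 CPM (6.04 to 16.6) against 0.377 CPM, a ratio of 27.5 (4.30 to 1148) on 17 and 1 UMIs. Hells had 15 and 1 UMIs, a ratio of 24.2 (3.73 to 1020), and lay below the minimum of 10 CPM. The 4 lower genes were lower there too, although with the TMM scaling Dnmt3a (0.692, 0.534 to 0.888) was no longer past 1.5-fold. Dnmt3a had 51.2 CPM in the low-cycle range and 98.5 CPM in CD, a ratio of 0.520 (0.402 to 0.667), Tet3 39.6 and 86.4 CPM (0.459, 0.343 to 0.607), and Tet2 14.6 and 35.1 CPM (0.417, 0.255 to 0.659). Ezh1 had 8.54 and 24.9 CPM (0.343, 0.178 to 0.616). Here 1 member was called higher, against 12.1% of 8206 genes, and 4 lower, against 39.9%. Thinning leaves few UMIs and picks the low-cycle cells anew. After it the intervals of all 4 lower genes include 1, with ratios of 0.782 (0.489 to 1.21) for Dnmt3a, 0.587 (0.307 to 1.05) for Tet3, 0.567 (0.231 to 1.22) for Tet2 and 0.765 (0.257 to 1.91) for Ezh1. Without thinning, the Ezh2 share of the Ezh2 and Ezh1 UMIs was 58.8% (40.7 to 75.4) in the low-cycle range, between that of all Repop D5 cells and that of CD. The Dnmt1 share of the Dnmt1 and Dnmt3a UMIs was 20.8% (13.5 to 29.7), against 9.69% (6.53 to 13.7) in the CD microglia-like cells. It also lay between that of all microglia-like Repop D5 cells, 41.1% (37.8 to 44.5), and that of CD. The intervals of the low-cycle range and CD meet only from 13.5 to 13.7, which does not show the shares to be equal.

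**Figure D4:**
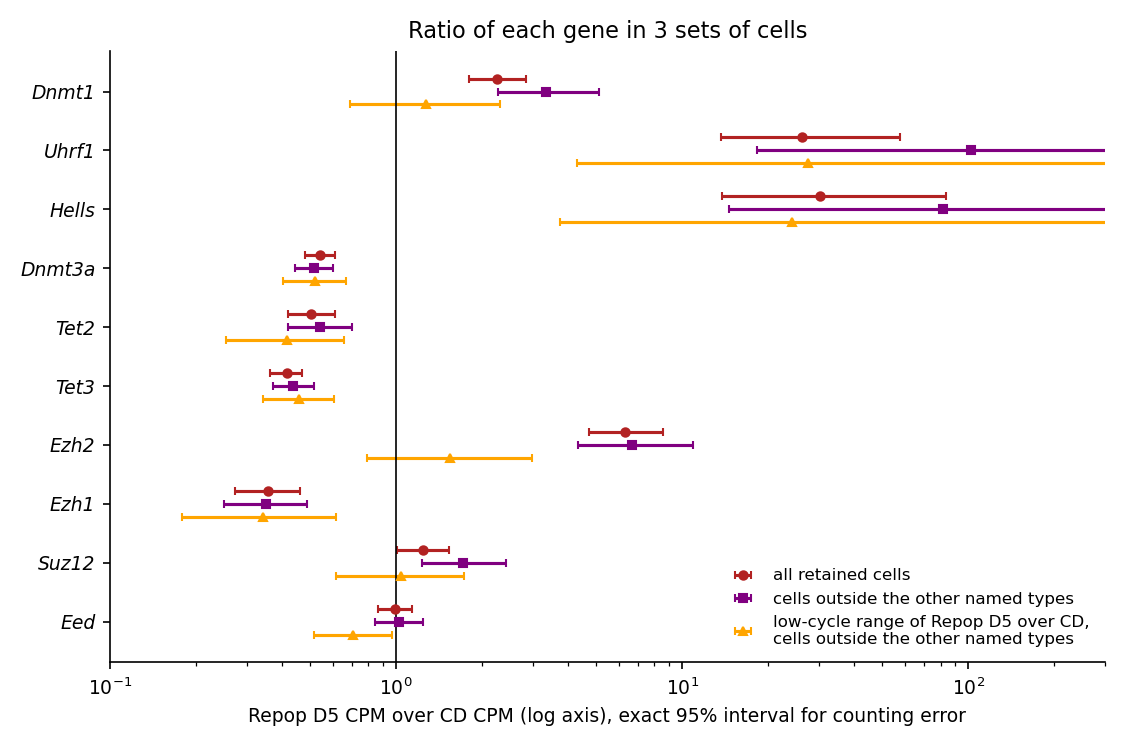
Ratio of Repop D5 over CD for each gene (log axis) with exact 95% intervals, in all retained cells, in cells outside the other named types (microglia-like) and for the low-cycle range of Repop D5 over those CD cells; intervals of Uhrf1 and Hells that rest on 1 CD UMI run past the axis. Ezh2 lies at 6.30 in all cells and at 1.54 in the low-cycle comparison (2.05 with the TMM scaling, not drawn), while Dnmt3a, Tet2, Tet3 and Ezh1 stay left of 1 in each.

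The levels were also compared in the monocyte or dendritic cell-like cells, which lay mostly in cluster 7 for Repop D5 and in cluster 8 for CD. The listed markers among the leading genes were Plac8, Ly6c2, Ccr2 and Ms4a4c in cluster 7. In cluster 8 they were H2-Aa, H2-Eb1, H2-Ab1, Ccr2 and Cd209a. The libraries may thus hold different cell types here, and the part of this in the values below was not tested. Uhrf1 had 43.1 CPM (31.8 to 57.1) in the 59 Repop D5 cells and 3.63 CPM (0.749 to 10.6) in the 55 CD cells. Ezh2 had 44.9 CPM (33.3 to 59.1) in Repop D5 and 12.1 CPM (5.81 to 22.3) in CD. Dnmt3a had 39.5 CPM (28.7 to 53.0) in Repop D5 and 81.2 CPM (62.9 to 103) in CD, and Tet3 41.3 and 92.1 CPM. These cells carried the microglia markers at 8541 CPM in Repop D5 and 25440 CPM in CD, and the part of microglial RNA in their values was not tested. Within CD, Dnmt3a had 98.5 CPM in microglia-like, 88.0 in border macrophage-like, 82.2 in neutrophil-like and 81.2 in monocyte or dendritic cell-like cells, an order in which no neighbours differed beyond their intervals. Tet3 had 104, 92.1, 86.4 and 80.7 CPM in border macrophage-like, monocyte or dendritic cell-like, microglia-like and neutrophil-like CD cells, again with overlapping intervals. The border macrophage-like and neutrophil-like CD cells also carried the microglia markers, at 30306 and 25910 CPM, beside 33442 CPM in the CD microglia-like cells. The part of microglial RNA in the levels of these classes was not tested.

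**Figure D5:**
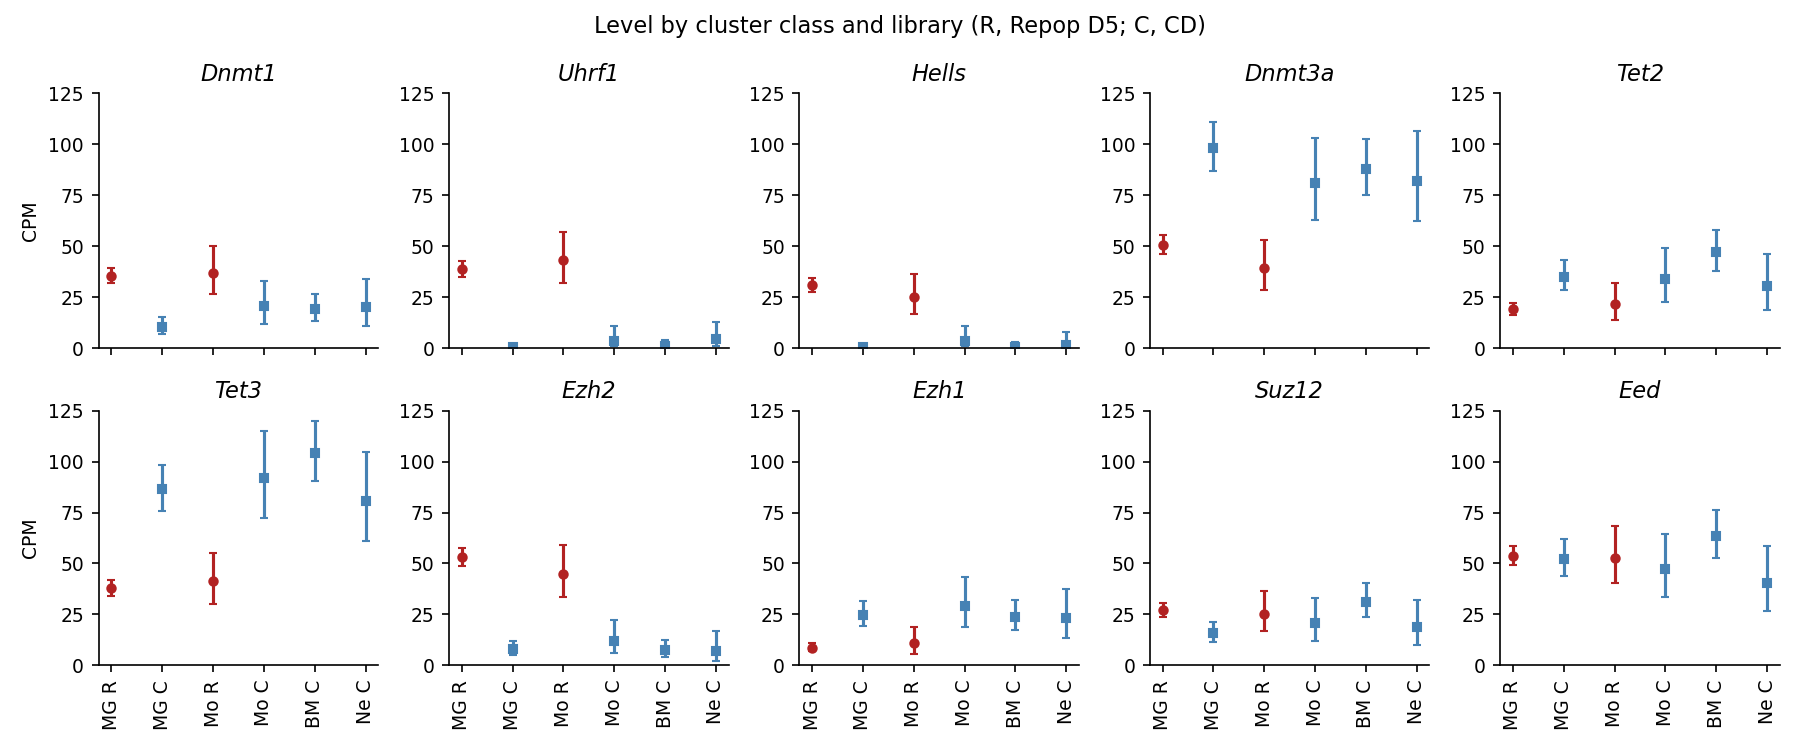
Level of each gene (CPM, exact 95% Poisson intervals) by cluster class and library, with circles for Repop D5 and squares for CD; MG, microglia-like; Mo, monocyte or dendritic cell-like; BM, border macrophage-like; Ne, neutrophil-like. Tet3 lies at 37.8 and 41.3 CPM in the Repop D5 classes drawn and at 80.7 CPM or more in those of CD.

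To set detection side by side, each cell was thinned to 3000 UMIs, a depth that 10 CD cells and 0 Repop D5 cells did not reach. Ezh2 was found in 64 of 553 Repop D5 cells (11.6%, exact 95% interval 9.03 to 14.5) and 14 of 599 CD cells (2.34%, 1.28 to 3.89), and in 45.4% and 6.90% before thinning. Uhrf1 was found in 8.68% of Repop D5 cells (6.47 to 11.3) and 0.334% of CD cells (0.0405 to 1.20), and in 40.0% and 1.31% before thinning, with up to 13 UMIs in 1 Repop D5 cell and up to 2 in a CD cell. Neutrophil-like cells were taken as a background since mature neutrophils do not divide, but whether these cells were mature was not tested. They held Uhrf1 in 0 of 47 thinned CD cells, which allows up to 6.38%, and Ezh2 likewise, but before thinning Uhrf1 in 6.25% and Ezh2 in 10.4% of 48 cells. Ezh2 had 7.21 CPM (2.34 to 16.8) in them, beside 7.92 CPM in CD microglia-like cells. Their median was 8716 UMIs in CD, and the 7 such cells of Repop D5 (median 5416 UMIs) are too few to give a background there.

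Dnmt3a was found in 13.7% of thinned Repop D5 cells (11.0 to 16.9) and 22.5% of CD cells (19.3 to 26.1). Before thinning the order was turned, with 54.4% in Repop D5 and 47.1% in CD. The thinned share of Tet3 was 11.0% in Repop D5 and 21.0% in CD, against 47.2% and 44.2% before thinning. Ezh1 was found in 2.53% of Repop D5 cells (1.39 to 4.21) and 6.34% of CD cells (4.53 to 8.60), and Eed in 83 of 553 Repop D5 cells and 90 of 599 CD cells. In neutrophil-like CD cells the thinned share of Dnmt3a was 19.1% and that of Tet3 14.9%, but these barcodes held the microglia markers at 25910 CPM and are no clean background.

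Other genes of these pathways were mostly lower or neither, and their counts are read against the 16.8% higher and 42.1% lower of all genes. Counts with the TMM scaling are read against its 30.2% higher and 21.7% lower of 8703 genes. Those in microglia-like cells are read against 17.8% higher and 38.9% lower of 8378 genes. Of 12 further DNA methylation and demethylation genes measured, 3 were higher and 6 lower (median log2 ratio -0.61). In microglia-like cells 4 of 12 were higher and 5 lower. With the TMM scaling 5 of 14 were higher and 4 lower (median -0.06). Below 10 CPM, Cdca7l had 96 UMIs in Repop D5 and 3 in CD and Ahcy 110 and 6. Tet1 had 10 and 29 and Smug1 23 and 39, and all of these were picked after their values were seen. Cdca7, the partner of Hells, is also on the S phase list. It had 43.2 CPM in Repop D5 and 20.8 CPM in CD (ratio 2.08, 1.70 to 2.55), and Apex1, a base excision repair enzyme, 97.1 and 50.5 CPM. Mat2a, which makes the methyl donor, had 99.8 CPM in Repop D5 and 191 CPM in CD, and Idh2, which makes the co-substrate of Tet enzymes, 79.9 and 117 CPM. Gadd45g and Gadd45a, stress genes linked to demethylation, had ratios of 0.230 and 0.243. Of 9 methyl-CpG binding genes, 0 were higher and 6 lower (median -0.98). Zbtb4 had 10.6 CPM in Repop D5 and 52.3 CPM in CD and Zbtb38 12.9 and 44.9 CPM, while Mbd3 (ratio 1.10) and Mbd2 (1.40) were neither. In microglia-like cells 1 of 7 was higher, Mbd2 at 2.14 (1.43 to 3.32), and 4 were lower. With the TMM scaling 2 of the 9 methyl-CpG binding genes were higher and 5 lower.

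The further Polycomb genes at 10 CPM or more were likewise lower or neither, with 1 exception. Phf19, a PRC2 accessory subunit below that level, had 40 UMIs in Repop D5 and 0 in CD, and Pcgf2, a PRC1 subunit also below it, had 8.61 and 3.63 CPM (2.37, 1.48 to 3.96); both were picked after their values were seen. Of 6 other PRC2 genes measured, Rbbp7, a histone-binding subunit, was higher, with 100.4 CPM in Repop D5 and 47.1 CPM in CD (ratio 2.13, 1.87 to 2.44). Another 3 were lower, among them Phf1 with 4.98 and 32.9 CPM and Jarid2 with 15.2 and 30.2 CPM, both accessory subunits. Rbbp4 was neither, with 105 and 91.6 CPM. Of 17 PRC1 genes, the complex that acts on chromatin marked by PRC2, 0 were higher and 14 lower (median -1.05). Cbx7, a reader of the PRC2 mark, had 1.81 CPM in Repop D5 and 14.9 CPM in CD, Cbx8 4.62 and 15.9 CPM, Phc3 19.3 and 50.7 CPM, and Kdm2b 53.6 and 84.9 CPM, while Pcgf1 (ratio 0.853) and Yaf2 (0.901) were neither. All 5 genes of the list of H3K27 demethylases and the H2A deubiquitinase were lower, with a median of -0.69, but with the TMM scaling the median was -0.26 and 1 of the 5, Kdm6b, was called. That scaling also left 11 of 19 PRC1 genes and 1 of 6 other PRC2 genes lower, with 1 and 2 higher. Of the 8703 genes measured with that scaling, 30.2% were higher and 21.7% lower. Kdm6b, a demethylase that removes the PRC2 mark, had 12.9 CPM in Repop D5 and 51.4 CPM in CD. Asxl1 and Asxl2 had ratios of 0.528 and 0.644 and Bap1, the deubiquitinase, of 0.661. In microglia-like cells 13 of the 17 PRC1 genes and 4 of the 5 of this list were lower, against 38.9% of 8378 genes.

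Genes of H3K9 methylation and heterochromatin gave 2 higher and 3 lower members among 10. Their median was -0.12, which turned to 0.33 with the TMM scaling and to 0.15 with totals that leave out mt- and ribosomal protein genes. Cbx5, a heterochromatin protein that is also on the G2 and mitosis list, had 63.6 CPM in Repop D5 and 14.7 CPM in CD, and Suv39h1, an H3K9 methyltransferase, 18.2 and 7.43 CPM. Setdb1 and Ehmt1, also H3K9 methyltransferases, had ratios of 0.581 and 0.617 and Atrx of 0.654. In microglia-like cells 0 of the 10 genes were lower, against 38.9% of 8378 genes. Cbx3, another heterochromatin protein, was neither (ratio 1.13). The cycle lists were mostly higher. Of 35 S phase genes measured, 29 were higher and 0 lower (median 2.48). Of 50 genes of G2 and mitosis, 45 were higher and 0 lower (median 3.26). In microglia-like cells 28 of 35 and 47 of 49 were higher, against 17.8% of 8378 genes. Genes that reach 10 CPM only in Repop D5 pass the minimum through the library where they are high. They cannot be called lower, so the counts and medians of these lists are a description only.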

How the data were processed

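The authors deposited 1 matrix per library of raw counts, whole numbers of UMIs for each gene in each cell. The build was mm10 and the software Cell Ranger 2.1.0, per the submitters' processing notes. Annotation release, use of strand and cell calling are not given in the sources used here. Per the labels' protocols, tissue was dissociated with papain, myelin was removed on Percoll, and dead cells were excluded by dye.

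The cell filter asked for 500 genes or more and less than 10% mt- UMIs and kept 553 of 585 in Repop D5 (11037921 UMIs) and 609 of 609 in CD (6055886 UMIs). Doublets stayed in the main values. Clustering used Python 3.11.15 and scanpy 1.11.5 on log-normalized counts (10000 per cell) of 2000 variable genes left unscaled, with 30 components and 15 neighbours. Leiden clusters (leidenalg 0.10.2, resolution 1) numbered 11. Leaving genes unscaled was chosen after seeing clusters, because it separated monocyte from border macrophage clusters. A cluster took another type's name if 3 or more of its 10 leading genes (at 50 CPM and in 25% of its cells) were that type's markers. CPM have exact Poisson intervals, ratios exact conditional binomial intervals and shares Clopper-Pearson intervals. They cover counting error only. Log2 ratios of lists use CPM + 1, which understates the change of low genes. Thinned shares of cells are the median of 20 seeded draws. Thinned ratios, calls and shares of a pair's UMIs rest on 1 seeded draw, and their intervals leave out the spread between draws. The interval and TMM code was tested on simulated data. All members were named. From the other lists came the 2 highest, 2 lowest and 2 most abundant measured genes, of which the cycle lists are given by counts only. Of these, 1 gene that this rule names is not reported here. The S phase list held 42 genes, of which 41 were in the files. Genomic positions are from GENCODE M21. The members and lists were chosen with earlier results of these data known.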

Additional observations from a re-analysis of the deposited data

How the results depend on the processing

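The 4 higher genes (Dnmt1, Uhrf1, Hells, Ezh2) and the 4 lower ones (Dnmt3a, Tet2, Tet3, Ezh1) were the same with no cell filter, a stricter filter, equal weight per cell, totals cleared of mt- and ribosomal protein genes, no minimum level, and after removing Scrublet doublets or the 5% deepest cells. Suz12 was added to the higher genes with the TMM scaling, after thinning and in microglia-like cells. With the TMM scaling 5 members were higher and 2 lower, against 30.2% higher and 21.7% lower of 8703 genes. With the totals cleared of mt- and ribosomal protein genes, 23.6% of 8938 genes were higher and 29.7% lower. For the filters, doublet and depth removal, thinning, equal weight, the ratio of 2 and other minimum levels, the shares over all genes were not computed. Counts under those settings therefore have no background. The lower genes numbered 2 (Tet3, Ezh1) with the TMM scaling and at a ratio of 2, and with a minimum of 50 CPM there were 1 higher (Ezh2) and 2 lower (Dnmt3a, Tet3), since fewer members then count as measured. The median log2 ratio of the members was 0.59 (TMM) and 0.41 (totals cleared of those genes), 2 scalings that raise every ratio by construction. The Ezh2 share was 88.4% in Repop D5 after thinning. The Dnmt1 share in CD was 9.69% in microglia-like cells and 10.0% after thinning, against 14.7% in all CD cells, and the cause was not tested. No called ratio turned under any alternative run. Low-cycle ratios of Uhrf1 and Hells after thinning are not given, since the draw behind them left 6 and 4 UMIs in Repop D5 and 0 in CD. The authors' pooled matrix was not run. No paired analysis was possible because each group is 1 library. Depth limits Uhrf1 and Hells in CD, with 9 and 6 UMIs.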
